A study of Mus with 15 samples.

Results

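The response to wounding that healthy and diabetic mice share was measured as the mean of the healthy wound and diabetic wound groups, each given equal weight, against normal skin. All 15 libraries of the series entered, 5 in each of 3 groups, in 1 model with a coefficient for each group. Of 55657 gene models in the authors' count table, 17122 (30.8%) passed a low-count filter and were tested. At an edgeR adjusted p under 0.05, 775 genes (4.53%) were higher and 750 genes (4.38%) were lower in the wound mean, 1525 (8.91%) in all, and 4445 genes had an unadjusted p under 0.05. The normal skin came from uninjured healthy mice and carries the treatment label sham. The healthy wounds were wound skin of healthy mice after wound surgery, and the diabetic wounds were wound skin of type I diabetic mice after the same labelled treatment. Strain, genotype, sex, age, the way diabetes was induced, the kind of wound and the time after surgery could not be taken from the sources used here. Uninjured skin of diabetic mice was not analysed here, so within the diabetic group the effects of wounding and of diabetes cannot be told apart. Nothing in the labels says that replicates are separate animals, so p-values measure only the spread between these libraries.

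A skin wound first fills with a clot and draws neutrophils and then monocytes, which clear debris and release cytokines and proteases. Keratinocytes at the edge then migrate over a provisional matrix, vessels sprout, and fibroblasts lay down new collagen. Fat, hair follicles, sebaceous glands and the thin muscle sheet of mouse skin are part of normal skin and can be lost or displaced at the wound site. In whole tissue, fewer cells of a type and less RNA per cell cannot be told apart.

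Libraries held 15693964 to 17777165 counts in normal skin, 17388455 to 17673495 in healthy wounds and 15721077 to 16739898 in diabetic wounds. Levels below are in CPM, counts scaled to each library's total, and fold changes are log2 values after TMM scaling, with the standard error (SE) from the fit. On the leading principal component, which held 31.2% of the variance, the 5 diabetic wounds lay at 22.15 to 148.59 and the other 10 libraries below 0. Diabetic wound replicate 5 lay farthest out. Krt14, the basal epidermal keratin, was present in every library at 709.6 to 12590 CPM, a range set by the diabetic wounds. Skeletal muscle genes summed to 5522 to 47870 CPM in normal skin, 2259 to 16420 CPM for healthy wounds and 3174 to 26990 CPM for diabetic wounds, and adipocyte genes to 5704 to 10480 CPM in normal skin, 1563 to 4393 CPM for healthy wounds and 1983 to 11080 CPM for diabetic wounds. These tissue components varied within groups as well as between them. Their part in the other results was not tested.

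Among the 775 genes called higher, 194 (25.0%) had all 10 wound libraries above all 5 normal skin libraries, as did 1.20% of all genes tested. Among the 750 genes called lower, 147 (19.6%) had all 10 below, as did 0.964% of all genes tested. The higher genes took 3.48% ± 0.408 of counts in normal skin (SD, n = 5), 6.54% ± 0.739 in healthy wounds and 9.78% ± 2.40 in diabetic wounds. The lower genes took 7.06% ± 1.64 in normal skin, 3.28% ± 0.456 in healthy wounds and 2.71% ± 0.422 in diabetic wounds. For both sets the ranges of the wound groups did not meet the range of normal skin, as the choice of genes would give. Rises of more than 1 on the log2 scale numbered 492 and falls of more than 1 numbered 530. A rise of more than 3 was found for 114 genes and a fall of more than 3 for 37. The higher count was 425, 475 and 417 without normal skin replicates 1, 2 and 4. The lower count was 359, 354, 433 and 449 without normal skin replicates 1 to 4, and 462, 482 and 477 without healthy wound replicates 1, 3 and 5. In all 15 fits that left out 1 library, 297 of the higher genes and 201 of the lower genes were called. Where a gene is given below under another setting of the processing, brackets hold its log2 fold change and its adjusted p in that setting. Counts of list members called in the wound mean stand beside 4.53% higher and 4.38% lower over all genes tested. For diabetic against healthy wounds these shares were 5.13% higher and 4.02% lower.

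Cxcl5 (ENSMUSG00000029371, chromosome 5, 90759360 to 90761624), a ligand of the neutrophil receptor CXCR2, gave the largest rise. Cxcl5 was at 0.172, 0.446, 0.115, 0 and 0 CPM in normal skin, 98.8, 41.8, 309, 16.4 and 44.6 CPM in healthy wounds and 163, 620.3, 87.8, 218 and 761 CPM in diabetic wounds. Every wound library lay above every normal skin library, and in 2 normal skin libraries no read was counted. The log2 fold change of the wound mean was 10.33 (SE 1.16, edgeR adjusted p = 0.00105), with 9.39 in healthy and 11.27 in diabetic wounds. Normal skin held 12 reads of it in all, and the fold was 11.29 without normal skin replicate 2. Other CXC chemokines rose with it: Cxcl1 by 6.15 (adjusted p = 0.0161), Cxcl3 by 6.03 (adjusted p = 0.0274), the platelet chemokines Ppbp by 4.21 (adjusted p = 0.00151) and Pf4 by 1.99 (adjusted p = 0.00721), all by edgeR. Cxcl1 was at 1.55, 0, 1.15, 0 and 0 CPM in normal skin, 9.60, 7.58, 17.8, 4.36 and 7.40 CPM in healthy wounds and 24.3, 102, 8.64, 9.66 and 684 CPM in diabetic wounds. No wound library of Cxcl1 fell into the normal skin range, but diabetic wound replicate 5 held most of its counts. Its fold change was 7.06 without normal skin replicate 1 and 5.06 without diabetic wound replicate 5. The call of Cxcl3 was lost without normal skin replicates 2, 3, 4 and 5, and its value was 11.69 without normal skin replicate 1. Of 8 genes in the list of neutrophil chemokines and growth factor, 7 were tested, 5 rose and none fell, with a median of 4.72 against 0.01 over all genes tested. Cxcl2, at 4.72 (adjusted p = 0.0750), and the granulocyte growth factor Csf3, at 4.13 (adjusted p = 0.0867), missed the threshold. Cxcl1 (6.10, 0.0576) lost the call with no low-count filter. Ppbp (5.45, 0.0248) and Cxcl1 (7.32, 0.0358) kept the call but moved with all 10 wounds as 1 group, and Cxcl1 (5.22, 0.0116) with diabetic wound replicates 4 and 5 both left out.

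Genes that mark neutrophils moved the same way: 13 of 19 tested members rose and none fell, with a median of 3.76. A gene that is nearly silent in normal skin passes the low-count filter only where wounds express it, so these counts over tested members describe the lists and support nothing further. Summed over the list, the level was 183 to 618 CPM in normal skin, 1070 to 4878 CPM for healthy wounds and 1078 to 9087 CPM for diabetic wounds, so all 10 wounds lay above normal skin. S100a9 (ENSMUSG00000056071, chromosome 3, 90692632 to 90695721), a calprotectin subunit stored in neutrophil cytoplasm, illustrates the pattern. Which cells expressed it cannot be told from whole tissue. S100a9 was at 129, 29.1, 40.2, 50.8 and 15.2 CPM in normal skin, 1988, 320.4, 760.1, 827 and 1106 CPM in healthy wounds and 342, 732, 1225, 394 and 1445 CPM in diabetic wounds. Its fold change was 4.10 (SE 0.626, edgeR adjusted p = 0.00385), and the difference between diabetic and healthy wounds was −0.26 (95% interval −1.48 to 0.97). Normal skin replicate 1 was the highest of its group, and without it the value was 4.76. Its partner S100a8 rose by 3.52 (SE 0.644, edgeR adjusted p = 0.00696), or 4.24 without normal skin replicate 1. The collagenase Mmp8 of neutrophil granules rose by 4.53 (SE 0.559, edgeR adjusted p = 0.00120). Mmp8 was at 3.09, 0.382, 1.84, 0.787 and 0.853 CPM in normal skin, 17.1, 12.0, 17.9, 14.9 and 15.3 CPM in healthy wounds and 16.5, 86.4, 127, 72.1 and 36.0 CPM in diabetic wounds. Healthy wounds were tightly grouped and diabetic wounds reached higher. The formyl peptide receptors Fpr1 and Fpr2 rose by 3.77 (adjusted p = 0.00857) and 3.48 (adjusted p = 0.00660), the chemokine receptor Cxcr2 by 2.13 (adjusted p = 0.0102) and the activating receptor Trem1 by 4.82 (adjusted p = 0.0173). Ly6g, at 3.76 (adjusted p = 0.0521), Csf3r, at 2.05 (adjusted p = 0.0601), and Retnlg, at 3.87 (adjusted p = 0.0533), were not called. Cd300lf, a myeloid immunoreceptor, was among the 10 largest rises, at 4.10 (SE 0.716, edgeR adjusted p = 0.00608), and at 4.95 without normal skin replicate 3.

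**Figure D1:**
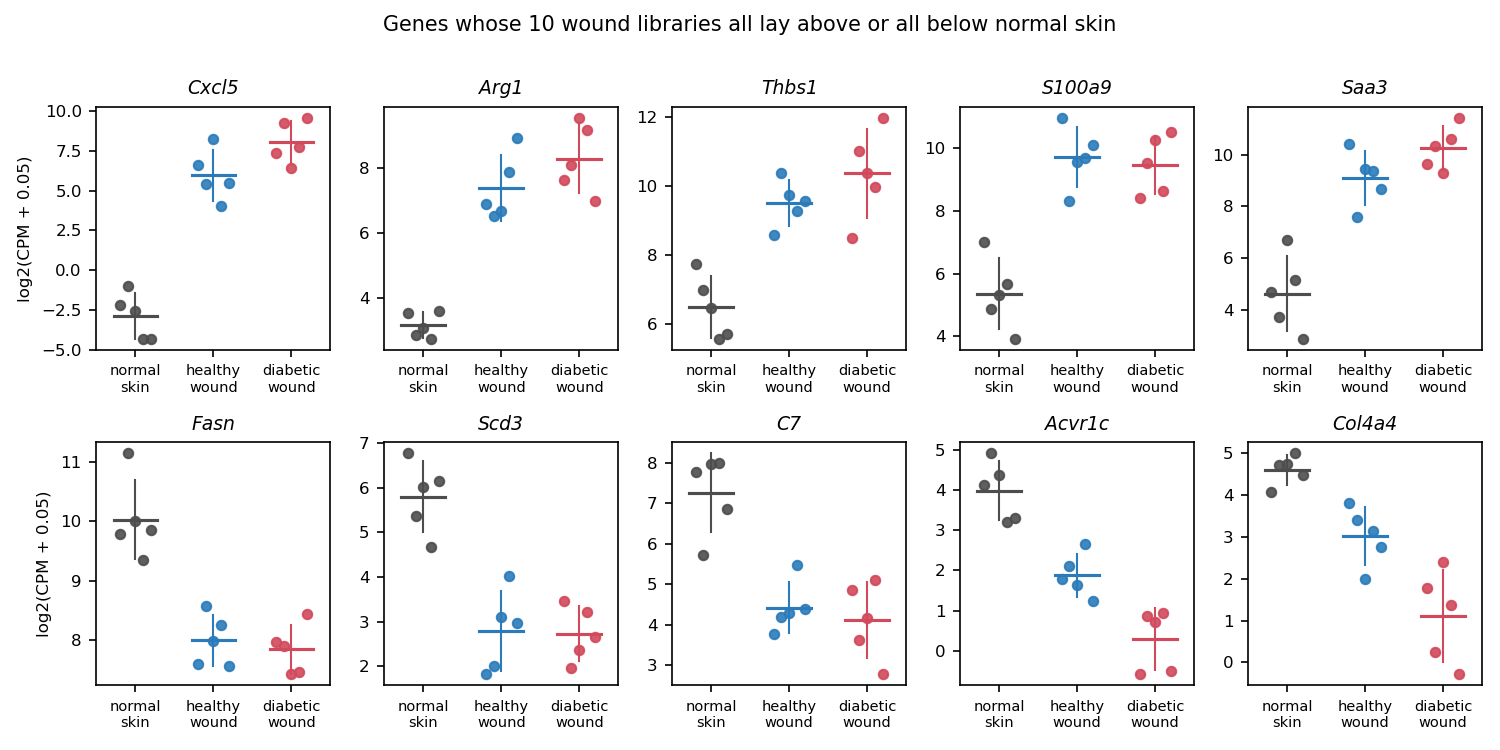
Levels of 10 genes in each of the 15 libraries, as log2(CPM + 0.05), with a point per library, a horizontal bar for the mean of these log values and a vertical bar for 1 SD (n = 5 per group). In each panel the 10 wound libraries lie all above (top row) or all below (bottom row) the 5 normal skin libraries; for Arg1, the highest normal skin library was at 12.0 CPM and the lowest wound at 92.0 CPM.

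Cytokines rose less uniformly, with 5 of 17 tested members higher, none lower and a median of 1.12. This count was 2 without normal skin replicates 2, 4 and 5 and 3 without normal skin replicate 3 and healthy wound replicates 1 and 3. The clearest rises were in the interleukin 20 family, whose members act mainly on keratinocytes and other epithelial cells. Il24 was at 0.115, 0, 0.115, 0 and 0 CPM in normal skin, 4.40, 3.16, 4.43, 5.04 and 2.41 CPM in healthy wounds and 0.185, 2.48, 13.3, 0.496 and 0.777 CPM in diabetic wounds. All wounds were above normal skin, where Il24 was near 0. Diabetic wound replicate 1, at 0.185 CPM, was also near 0 and only just above the highest normal skin level of 0.115 CPM. The fold change was 6.08 (SE 1.17, edgeR adjusted p = 0.00849), or 5.18 without diabetic wound replicate 3. Il19 had 2 counts in the 5 normal skin libraries together and 1400 in the 10 wounds. The ratio of its mean levels was 352, with a 95% counting interval of 97.3 to 2910 that covers counting error only. Its fitted fold change was 7.43 (SE 1.49, edgeR adjusted p = 0.0102) and 6.03 without diabetic wound replicate 5, which was far above the other wounds. Oncostatin M (Osm) rose by 4.33 (adjusted p = 0.0286), a call lost without normal skin replicates 2, 3, 4 and 5, and reached 5.93 without normal skin replicate 1. The classical early cytokines were high in most wounds but missed the threshold. Il1b was at 85.7, 13.7, 6.17, 1.80 and 2.80 CPM in normal skin, 83.4, 16.8, 129, 776 and 687 CPM in healthy wounds and 32.6, 199.7, 235, 126 and 725 CPM in diabetic wounds. Normal skin replicate 1 lay inside the wound range, the fold change was 3.76 (SE 1.17, edgeR adjusted p = 0.0575), and without that library it was 5.60 (edgeR adjusted p = 0.0242). It also passed without healthy wound replicate 2, at 3.91 (adjusted p = 0.0423). Il6 gave 3.74 (SE 1.13, edgeR adjusted p = 0.0512), passed without diabetic wound replicate 3 or 4, and was 4.76 without normal skin replicate 2. Tnf gave 2.47 (SE 0.960, edgeR adjusted p = 0.118), and 4.01 with a call without normal skin replicate 1. The cytokine list had 8 higher with DESeq2. Il6 (3.73, 0.00683), Il1b (3.75, 0.00191) and Tnf (2.48, 0.0155) gained a call with DESeq2, and Il1b (3.90, 0.0460) with limma-voom. Il24 (4.90, 0.00416) and Il19 (5.87, 0.00337) kept the call but moved with limma-voom, Il19 (8.09, 0.0221) with all 10 wounds as 1 group, and Il19 (6.16, 0.00217) with diabetic wound replicates 4 and 5 both left out.

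Of 16 genes that NF-kappaB or STAT3 signalling induces and that restrain it, 9 rose and none fell by edgeR, and all 16 had a positive fold change, with a median of 1.02. That number was 2 without normal skin replicate 2, 4 without normal skin replicates 3 and 4 and 5 without normal skin replicates 1 and 5. Socs3, the STAT3 inhibitor, had 32.6 to 66.3 CPM in uninjured skin, 95.3 to 376 CPM in healthy wounds and 151 to 896 CPM in diabetic wounds, a rise of 2.5 (SE 0.450, edgeR adjusted p = 0.00652) without overlap. Nfkbia, which encodes the NF-kappaB inhibitor IκBα, rose by 1.51 (SE 0.322, edgeR adjusted p = 0.0136), and its rise was larger in diabetic than in healthy wounds by 1.60 (adjusted p = 0.0203). Ripk3, a kinase of necroptotic cell death, rose evenly in both groups. It meets a naming rule that asked for a diabetic minus healthy value within 0.5 of 0 and no overlap. Neither trait is therefore a result about Ripk3. Ripk3 was at 9.39, 13.0, 19.1, 13.7 and 11.8 CPM in normal skin, 39.6, 25.6, 39.2, 33.1 and 31.7 CPM in healthy wounds and 23.7, 30.9, 41.5, 38.2 and 26.0 CPM in diabetic wounds. The wound ranges were above the normal skin range and alike, with fold changes of 1.34 and 1.27 and a mean of 1.31 (SE 0.196, edgeR adjusted p = 0.00385). Of 14 CC and interferon-induced chemokines, 2 rose, against 4.53% of all genes tested. The 2 were Ccl2 by 3.28 (SE 0.764, edgeR adjusted p = 0.0192) and Ccl7 by 2.0 (SE 0.494, edgeR adjusted p = 0.0238), both attracting monocytes. The Ccl2 call was lost without normal skin replicates 2 and 4, and that of Ccl7 without normal skin replicates 1, 2 and 5. Over the list the count was 0 without normal skin replicate 2, 1 without normal skin replicates 4 and 5 and 4 without normal skin replicate 3. None of the 21 interferon-stimulated genes was called by edgeR, although all 21 were positive (median 0.69). Their median was 1.31 in healthy and 0.04 in diabetic wounds. Lower levels in diabetic than in healthy wounds were called for 2 of them, against 4.02% of all genes tested. At an unadjusted p under 0.05, 5 of the 21 passed, and with DESeq2 1 did. The CC chemokine list had 5 higher and 1 lower with DESeq2 and 1 lower with limma-voom. Ccl2 (3.23, 0.0660) and Ccl7 (1.98, 0.0609) lost the call with no low-count filter, and Nfkbia (1.72, 0.0514) with all 10 wounds as 1 group.

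Arg1 (ENSMUSG00000019987, chromosome 10, 24915221 to 24927484), the arginase that wound macrophages express, rose strongly in both wound groups. Arg1 was at 11.4, 7.07, 8.36, 6.58 and 12.0 CPM in normal skin, 120.4, 92.0, 103, 235 and 492 CPM in healthy wounds and 201, 277, 754, 582 and 126 CPM in diabetic wounds. The lowest wound library was well above the highest normal skin library, and the fold change was 4.99 (SE 0.594, edgeR adjusted p = 0.00114), with 4.56 in healthy and 5.43 in diabetic wounds. Of the 13 arginine, nitric oxide and polyamine enzymes, 4 rose, with Arg2 at 2.21 (adjusted p = 0.0294), the inducible nitric oxide synthase Nos2 at 3.45 (adjusted p = 0.0301) and the polyamine acetyltransferase Sat1 at 1.08 (adjusted p = 0.0113); the list median was 0.44. The call was lost for Arg2 without normal skin replicates 1, 2, 3 and 4, and for Nos2 without normal skin replicates 1, 3, 4 and 5. The count was 2 without normal skin replicates 1, 3 and 4. Of 18 monocyte and macrophage markers, 6 rose and none fell, with a median of 1.01. For these markers the count was 3 without normal skin replicates 2 and 4. The scavenger receptor Msr1 rose by 1.81 (SE 0.317, edgeR adjusted p = 0.00610), the integrin chain Itgam by 1.69 (SE 0.313, edgeR adjusted p = 0.00726) and the lectin Chil3 by 4.81 (SE 1.00, edgeR adjusted p = 0.0125), which was 5.48 without normal skin replicate 3. The widely used macrophage genes Adgre1, at 0.43 (adjusted p = 0.617), and Csf1r, at 0.17 (adjusted p = 0.820), and the resident macrophage receptors Mrc1, at 0.05 (adjusted p = 0.961), and Cd163, at −0.19 (adjusted p = 0.833), were not called. Summed markers were at 1234 to 4473 CPM in normal skin, 3663 to 4740 CPM for healthy wounds and 3704 to 7859 CPM for diabetic wounds, so the groups overlapped at the top of the normal skin range. Saa3, the acute-phase serum amyloid made in tissue, was among the largest gains in reads. Saa3 was at 26.2, 13.1, 105, 35.3 and 7.37 CPM in normal skin, 1376, 195, 694, 667 and 403 CPM in healthy wounds and 792, 1300, 627, 1567 and 2729 CPM in diabetic wounds. All wounds lay above all normal skin libraries, with a fold change of 4.70 (SE 0.718, edgeR adjusted p = 0.00385), and 5.56 without normal skin replicate 3. Slpi, an inhibitor of neutrophil elastase, rose by 3.38 (SE 0.446, edgeR adjusted p = 0.00151), and 9 of 16 tested acute-phase and antimicrobial genes rose in all (median 2.90). The number called was 2 without normal skin replicate 1, 3 without normal skin replicate 2, 4 without healthy wound replicates 1 and 3 and 5 without normal skin replicate 5 and healthy wound replicate 4. Reads of Saa1 and Saa2 may be split between near-identical copies. The arginine and polyamine list had 2 higher with limma-voom.

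Of 25 tested matrix proteases and inhibitors, 13 rose and none fell by edgeR, with a median of 1.44. The number called was 8 without normal skin replicates 1, 2 and 4. The urokinase receptor Plaur rose by 3.40 (SE 0.714, edgeR adjusted p = 0.0128), or 4.08 without normal skin replicate 1, and urokinase itself (Plau) was at 0.32 (adjusted p = 0.371). Adam8, a metalloprotease of myeloid cells, rose by 2.73 (SE 0.326, edgeR adjusted p = 0.00114), with 17.4 to 55.1 CPM in uninjured skin, 93.9 to 199.5 CPM in healthy and 146 to 405 CPM in diabetic wounds. The inhibitor Timp1 rose by 2.86 (SE 0.478, edgeR adjusted p = 0.00575), whereas Timp2, Timp3 and Timp4 had values of −0.68, −0.37 and −1.30 and were not called. Mmp2 and Mmp14, collagen-degrading enzymes of fibroblasts, were at 0.02 and 0.17 and not called. Of 18 tested provisional matrix and matricellular genes, 4 rose, with a median of 0.62. The count was 2 without normal skin replicates 3 and 4. Thbs1, thrombospondin 1, is released by platelets and made by many cells. Thbs1 was at 213, 128, 88.0, 47.8 and 52.5 CPM in normal skin, 381, 1329, 852, 621 and 762 CPM in healthy wounds and 364, 2087, 1319, 1005 and 4013 CPM in diabetic wounds. No wound overlapped normal skin, and the fold change was 3.46 (SE 0.578, edgeR adjusted p = 0.00575). Tnfaip6, which modifies hyaluronan, rose by 2.43 (SE 0.526, edgeR adjusted p = 0.0148), and fibronectin (Fn1) was at −0.49 (adjusted p = 0.498). The protease list had 1 lower with DESeq2 and 2 lower with limma-voom. The provisional matrix list had 1 lower with limma-voom.

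**Figure D2:**
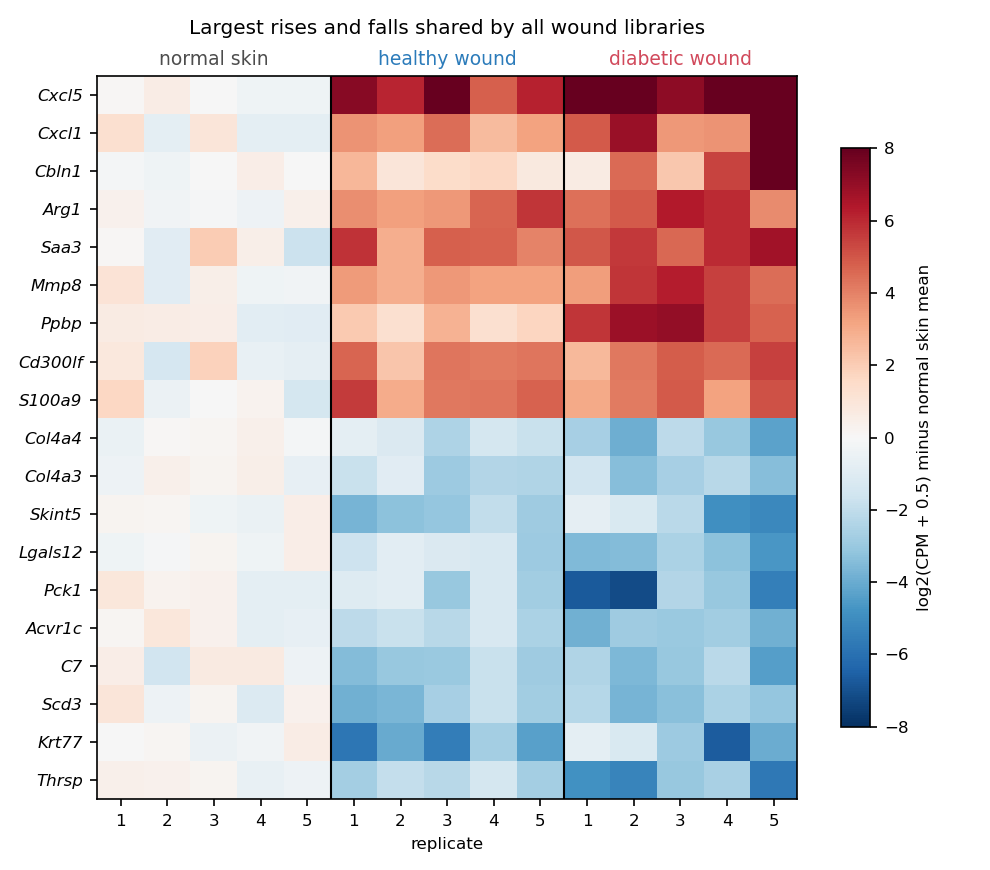
Heat map of genes among the largest rises and falls, from called genes with at least 10 CPM and no overlap between wounds and normal skin, as log2(CPM + 0.5) minus the mean of the 5 normal skin libraries; columns are replicates 1 to 5 of each group, and colours saturate at a size of 8. Arg1, Saa3 and S100a9 are higher in every wound of both groups, while Ppbp, Cbln1 and Thrsp are more extreme in diabetic wounds.

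Collagen genes had no common rise, and diabetic wounds had less of many of them than healthy wounds. Col1a1 was at 17490, 23410, 14420, 10720 and 10580 CPM in normal skin, 17150, 7481, 15750, 19060 and 32350 CPM in healthy wounds and 3843, 576, 2904, 3431 and 90.2 CPM in diabetic wounds. Healthy wounds overlapped normal skin, all diabetic wounds lay below both, and the mean fold change of −1.27 (SE 0.575, edgeR adjusted p = 0.176) joined 0.27 in healthy with −2.81 in diabetic wounds. Diabetic wounds were lower than healthy wounds by 3.08 on the log2 scale (a difference of −3.08, adjusted p = 0.0265). Col3a1 behaved alike, with 0.73 and −1.76 and a mean of −0.51 (SE 0.585, edgeR adjusted p = 0.614). Of 28 collagen chains and collagen-modifying enzymes, 1 rose and none fell in the wound mean (median 0.11). But 15 were lower in diabetic than in healthy wounds, against 4.02% of all genes tested. The 1 that rose, the lysyl oxidase relative Loxl3, had 1.27 (SE 0.352, edgeR adjusted p = 0.0373), and its call was lost without normal skin replicates 1, 2, 4 and 5 and healthy wound replicates 1, 3, 4 and 5. The list count was 3 without diabetic wound replicate 5, 2 without healthy wound replicate 2 or diabetic wound replicate 3, and 0 without normal skin replicates 1, 4 and 5 and healthy wound replicates 1, 3, 4 and 5. Col18a1, whose product carries endostatin, missed narrowly at 0.75 (SE 0.226, edgeR adjusted p = 0.0510) and passed without diabetic wound replicate 5, at 0.85 (edgeR adjusted p = 0.00660). The smooth muscle actin gene Acta2, a myofibroblast marker, was at 1.06 in healthy and −0.52 in diabetic wounds, for a mean of 0.27 (SE 0.241, edgeR adjusted p = 0.502). The collagen list had 6 higher with DESeq2 and 6 higher and 1 lower with limma-voom. Loxl3 (1.25, 0.0748) lost the call with no low-count filter, and Loxl3 (1.34, 0.0635) with all 10 wounds as 1 group. Col18a1 (0.74, 0.0455) gained a call with RLE scaling, Col18a1 (0.73, 0.0465) with a stricter filter, Col18a1 (0.74, 0.00974) with DESeq2, Col18a1 (0.69, 0.00982) with limma-voom, and Col18a1 (0.84, 0.00858) with diabetic wound replicates 4 and 5 both left out.

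A loss that the wound groups did share was found in genes of resting dermal fibroblasts. C7 (ENSMUSG00000079105, chromosome 15, 4988762 to 5063740), a complement component that dermal fibroblasts express, was low in every wound. C7 was at 219, 53.1, 249, 254 and 116 CPM in normal skin, 13.5, 18.3, 19.4, 44.7 and 20.7 CPM in healthy wounds and 29.1, 12.3, 18.0, 34.3 and 6.81 CPM in diabetic wounds. The highest wound library was below the lowest normal skin library, and the fold change was −3.03 (SE 0.393, edgeR adjusted p = 0.00151), nearly equal in healthy (−2.93) and diabetic wounds (−3.13). C7 also meets the naming rule of a difference within 0.5 of 0 and no overlap, so neither trait is a result. Abca8a, a lipid transporter, fell with it by 2.07 on the log2 scale (edgeR adjusted p = 0.00468), from 38.0 to 92.0 CPM to 13.5 to 24.7 CPM in healthy and 2.45 to 19.9 CPM in diabetic wounds. Clec3b, at −2.08 (adjusted p = 0.0247), and the actin-severing Gsn, at −1.31 (adjusted p = 0.0161), also fell, so that 4 of 20 markers were lower and none higher (median −0.59). The number was 2 without normal skin replicate 1. The Gsn call was lost without normal skin replicate 1, and that of Clec3b without normal skin replicates 1, 3 and 4. Decorin (Dcn), at −0.09 (adjusted p = 0.845), and lumican (Lum), at −0.13 (adjusted p = 0.869), abundant in all fibroblasts, were not called. Among 16 activated fibroblast genes, the activin chain Inhba rose by 2.22 (SE 0.548, edgeR adjusted p = 0.0242), Ltbp2 rose by 1.76 (adjusted p = 0.0464) and the muscle-type tropomyosin Tpm2 had −1.45 (SE 0.357, edgeR adjusted p = 0.0238) (list median 0.09). The list median was 0.69 in healthy and −0.54 in diabetic wounds. Of the 16, 7 were lower in diabetic than in healthy wounds and none higher, against 4.02% lower over all genes tested. The wound mean calls of Inhba, Tpm2 and Ltbp2 did not hold in every fit that left out 1 library. Inhba lost its call without normal skin replicates 3 and 4, at values of 2.06 and 2.03. Tpm2 lost its call without normal skin replicates 1, 2 and 3, at −1.35, −1.27 and −1.39. Ltbp2 was called in 2 of the 15 fits, those without normal skin replicate 2 and diabetic wound replicate 5. The Ltbp2 value was 2.69 without normal skin replicate 2. Rises in that list numbered 0 without normal skin replicates 3 and 4 and 1 without normal skin replicates 1 and 5, healthy wound replicates 1, 2, 3, 4 and 5 and diabetic wound replicates 2, 3 and 4. The resting fibroblast list had 12 lower with limma-voom. Tpm2 (−1.47, 0.0551) and Inhba (2.19, 0.0585) lost the call with no low-count filter.

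Of 16 endothelial genes, 7 rose and none fell (median 1.05). The number called was 3 without normal skin replicates 1, 2, 4 and 5 and healthy wound replicate 1 and 4 without healthy wound replicate 3. The tip-cell peptide Apln and the vessel-destabilising ligand Angpt2, both genes of sprouting vessels, were among the 3 largest rises of the list. Apln was at 4.98, 4.40, 3.17, 2.25 and 2.62 CPM in normal skin, 18.4, 13.1, 35.4, 27.7 and 24.4 CPM in healthy wounds and 9.09, 12.3, 12.9, 31.1 and 4.60 CPM in diabetic wounds. Angpt2 was at 9.45, 7.33, 6.92, 6.08 and 1.40 CPM in normal skin, 30.4, 15.1, 38.0, 29.5 and 26.1 CPM in healthy wounds and 40.7, 73.0, 15.9, 51.0 and 151 CPM in diabetic wounds. The groups did not overlap for Angpt2, while for Apln 1 diabetic wound, replicate 5, lay below 1 normal skin library, replicate 1. The fold changes were 2.38 (SE 0.414, edgeR adjusted p = 0.00599) for Apln and 2.78 (SE 0.516, edgeR adjusted p = 0.00729) for Angpt2, and the pan-endothelial genes Emcn, at 1.68 (adjusted p = 0.0141), and Pecam1, at 1.09 (adjusted p = 0.0305), rose less. Leaving out 1 library ended the Pecam1 call for normal skin replicates 1, 2, 4 and 5 and healthy wound replicate 1. The receptors Kdr, at 0.87 (adjusted p = 0.115), and Flt1, at 0.79 (adjusted p = 0.210), and their ligand Vegfa, at 0.84 (SE 0.347, edgeR adjusted p = 0.138), were not called.

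The fibronectin receptor chain Itga5, which migrating keratinocytes and other cells use, was equally high in both wound groups. These whole-tissue values do not show which cells expressed it. Itga5 was at 70.1, 45.4, 75.8, 42.2 and 31.9 CPM in normal skin, 183, 122, 372, 134 and 177 CPM in healthy wounds and 118, 143, 173, 319 and 228 CPM in diabetic wounds. No wound overlapped normal skin, and the fold changes were 1.89 and 1.89, with a mean of 1.89 (SE 0.325, edgeR adjusted p = 0.00578). The difference between diabetic and healthy wounds was −0.00163 (95% interval −0.73 to 0.72). Of 23 wound-edge keratinocyte genes, 7 rose and none fell (median 1.30), among them the growth factor Hbegf at 1.93 (adjusted p = 0.0282) and the AP-1 member Fosl1 at 1.72 (adjusted p = 0.0273). Both Hbegf and Fosl1 lost their call without normal skin replicates 2, 3, 4 and 5, and Fosl1 reached 2.38 without normal skin replicate 1. The 7 became 3 without normal skin replicates 3 and 5 and 4 without normal skin replicate 2. The wound keratins Krt6a and Krt16 were not called by edgeR. Krt6a was at 51.3, 607, 91.5, 1514 and 625 CPM in normal skin, 1190, 2056, 1085, 1686 and 2369 CPM in healthy wounds and 661, 1576, 3231, 179.5 and 227 CPM in diabetic wounds. Normal skin replicate 4 lay among the wounds and diabetic wound replicates 4 and 5 lay among normal skin, and the fold change was 1.30 (SE 0.767, edgeR adjusted p = 0.299), or 2.04 without that normal skin library. Krt16 gave 1.04 (SE 0.753, edgeR adjusted p = 0.408), or 1.76 without the same library, and near-identical Krt6 copies may share reads. Small proline-rich and late envelope genes had a median of 1.48, with 2 of 23 tested genes called higher, against 4.53% of all genes tested. The 2 were Sprr2i at 3.85 (SE 0.832, edgeR adjusted p = 0.0146) and Sprr2k at 4.06 (SE 1.09, edgeR adjusted p = 0.0331). Sprr2 copies may share reads. The count was 1 without normal skin replicates 1, 2, 3 and 5, healthy wound replicates 1 and 5 and diabetic wound replicate 2. The Sprr2k value was 5.47 without normal skin replicate 4, and its call was lost without normal skin replicates 1, 2, 3 and 5, healthy wound replicates 1 and 5 and diabetic wound replicate 2. The wound-edge list had 11 higher with DESeq2 and 12 higher with limma-voom. The small proline-rich list had 6 higher with DESeq2 and 1 higher with limma-voom. Sprr2k (4.02, 0.0621) lost the call with no low-count filter, and Sprr2i (3.94, 0.0897) with limma-voom. Krt6a (2.58, 0.0335) and Krt16 (2.37, 0.0478) gained a call with limma-voom.

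Resting suprabasal genes went the other way in sign: all 23 had a negative fold change (median −0.74). Of the 23, 2 were called lower, against 4.38% of all genes tested. Krt77 was at 3099, 3493, 2260, 2520 and 4641 CPM in normal skin, 57.0, 188, 67.9, 463 and 155 CPM in healthy wounds and 1773, 1355, 409, 29.7 and 199.6 CPM in diabetic wounds. Krt77, a type II keratin of the upper epidermis (ENSMUSG00000067594, chromosome 15, 101858731 to 101869705), was below normal skin in every wound, at −3.08 (SE 0.655, edgeR adjusted p = 0.0137), with −4.10 in healthy and −2.05 in diabetic wounds. The difference of 2.05 between the wound groups was not called (adjusted p = 0.112). Krt2 was the other, at −3.75 (SE 1.01, edgeR adjusted p = 0.0330), with low levels throughout, a value of −2.65 without normal skin replicate 1 and −4.68 without healthy wound replicate 4, and no call without normal skin replicates 1 and 5 and healthy wound replicates 1, 3 and 5. Krt10, the main suprabasal keratin, was at −1.98 (SE 0.650, edgeR adjusted p = 0.0675) and passed without diabetic wound replicate 1, at −2.23 (edgeR adjusted p = 0.0462). Basal keratinocyte markers were not called in either direction among 12 tested (median 0.05), with Krt14 at 0.46 (adjusted p = 0.642); at an unadjusted p under 0.05, 1 of the 12 passed. Skint5, a gene expressed in epidermis and thymus, had −2.58 (SE 0.663, edgeR adjusted p = 0.0271) without overlap of the groups, and its call was lost without normal skin replicates 1, 2 and 5 and healthy wound replicates 1 and 3. The suprabasal list had 4 lower with DESeq2. Skint5 (−2.60, 0.0720) and Krt2 (−3.79, 0.0713) lost the call with no low-count filter, and Krt2 (−3.38, 0.0556) with diabetic wound replicates 4 and 5 both left out. Krt10 (−1.99, 0.0142) gained a call with DESeq2.

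Fat and lipid synthesis genes held the largest number of falls among the 33 lists: 11 of 21 adipocyte genes were lower and none higher (median −1.27), and 7 of them had all wounds below all normal skin libraries. The count was 17 without diabetic wound replicate 4. Fasn (ENSMUSG00000025153, chromosome 11, 120805846 to 120824547), fatty acid synthase, fell to the same level in both wound groups. Fasn was at 884, 2259, 1025, 654 and 929 CPM in normal skin, 194, 381, 253, 307 and 189 CPM in healthy wounds and 252, 240.1, 174, 177 and 346 CPM in diabetic wounds. Wounds were below normal skin without overlap, and the fold change was −2.21 (SE 0.274, edgeR adjusted p = 0.00120), with −2.14 in healthy and −2.27 in diabetic wounds. Acaca, which makes the malonyl-CoA that Fasn uses, fell by 1.27 (SE 0.176, edgeR adjusted p = 0.00206) on the log2 scale, with −1.27 and −1.27. Fasn and Acaca both meet the naming rule of a difference within 0.5 of 0 and no overlap, so neither trait is a result. Scd3, a fatty acid desaturase of sebaceous gland and fat, was at −3.04 (SE 0.378, edgeR adjusted p = 0.00120). Scd3 was at 109.6, 41.5, 65.1, 25.6 and 71.5 CPM in normal skin, 3.49, 3.96, 8.51, 16.2 and 7.75 CPM in healthy wounds and 11.0, 3.82, 5.06, 9.29 and 6.21 CPM in diabetic wounds. The groups did not overlap, and the wound groups were alike, although Scd3 may share reads with Scd1. Thrsp, a regulator of lipogenesis, was at −3.11 (SE 0.474, edgeR adjusted p = 0.00385), the lipid droplet lectin Lgals12 at −2.65 (SE 0.378, edgeR adjusted p = 0.00273) and Acvr1c, the ALK7 receptor of adipocytes, at −2.98 (SE 0.341, edgeR adjusted p = 0.00105). The Acvr1c levels were 17.6, 30.2, 20.8, 9.22 and 9.81 CPM in normal skin, 3.37, 4.25, 3.05, 6.28 and 2.29 CPM in healthy wounds and 0.618, 1.78, 1.60, 1.86 and 0.657 CPM in diabetic wounds, falling in steps with no overlap between any of the 3 groups. For Acvr1c the diabetic wounds were lower than the healthy wounds by a log2 difference of −1.54 (adjusted p = 0.0386). Perilipin 1 (Plin1), at −2.29 (adjusted p = 0.0145), Gpd1, at −1.54 (adjusted p = 0.00876), and Dgat2, at −1.36 (adjusted p = 0.00599), fell too, while Adipoq, at −1.15 (adjusted p = 0.224), Cfd, at −0.05 (adjusted p = 0.976), and Fabp4, at 0.21 (adjusted p = 0.744), were not called. Plin2, which coats lipid droplets in many cell types, was higher, at 1.22 (SE 0.263, edgeR adjusted p = 0.0145).

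Leptin (Lep) shows a call that the diabetic wounds carry. Lep was at 22.1, 26.7, 23.9, 16.8 and 24.6 CPM in normal skin, 11.3, 30.0, 17.4, 7.92 and 2.12 CPM in healthy wounds and 0, 0, 1.17, 0 and 0 CPM in diabetic wounds. Healthy wounds overlapped normal skin and 4 of 5 diabetic wounds had no read, so the mean of −3.65 (SE 0.696, edgeR adjusted p = 0.00832) joined −0.76 with −6.54; it was −6.17 without diabetic wound replicate 3. Of 15 tested sebaceous gland genes, 2 fell and Plin2 rose (median −1.23), and the number lower was 4 without healthy wound replicate 4 and diabetic wound replicates 1 and 4. Skeletal muscle genes had 5 of 23 lower (median −1.26), led by Myh1, a fast myosin heavy chain, at −2.99 (SE 0.597, edgeR adjusted p = 0.0102). That number was 3 without normal skin replicates 1, 2 and 4 and 8 without normal skin replicate 5. Myh1 was at 8313, 8116, 3971, 2061 and 635 CPM in normal skin, 491, 816, 922, 91.7 and 217 CPM in healthy wounds and 1394, 633, 533, 717 and 154 CPM in diabetic wounds. Normal skin replicate 5 was inside the wound range, and the range within normal skin was wide. Myoglobin (Mb) was at −2.58 (SE 0.459, edgeR adjusted p = 0.00633). The sebaceous list had 5 lower with DESeq2 and 8 lower with limma-voom. The muscle list had 9 lower with DESeq2. Lep (−1.73, 0.391) lost the call with all 10 wounds as 1 group. Lep (−4.84, 0.00399) kept the call but moved with limma-voom.

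Hair and pigment genes varied widely within normal skin and within healthy wounds. Summed hair genes were at 31.3 to 7221 CPM in normal skin, 26.1 to 13030 CPM for healthy wounds and 7.50 to 42.4 CPM for diabetic wounds. The hair-root keratin Krt71 was called lower at −7.11 (SE 2.03, edgeR adjusted p = 0.0418), although healthy wounds gave 0.42. It ranged from 0 to 1895 CPM in normal skin and from 0 to 2805 CPM in healthy wounds, and 4 of 5 diabetic wounds had no read and the other 0.0617 CPM. A fitted fold against a group near 0 is no bound, the call held in only 3 of the 15 fits that leave out a library, and the value was −5.63 without normal skin replicate 5, −8.10 without healthy wound replicate 2 and −7.82 without diabetic wound replicate 3. The call was kept without normal skin replicate 1 and without healthy wound replicates 2 and 3, and lost without each other library. The hair list had 3 of 24 tested genes lower, with medians of 0.70 in healthy and −6.67 in diabetic wounds, and 11 of the 24 were lower in diabetic than in healthy wounds. Its count was 0 without normal skin replicate 5, 1 without normal skin replicates 3 and 4, healthy wound replicates 1, 4 and 5 and diabetic wound replicates 1, 2, 3, 4 and 5 and 7 without healthy wound replicate 2. Of 10 tested melanocyte genes, 4 were lower, with summed levels of 83.9 to 419 CPM in normal skin, 75.0 to 154 CPM for healthy wounds and 58.5 to 65.1 CPM for diabetic wounds. Dct, a pigment enzyme, was at −3.35 (SE 0.749, edgeR adjusted p = 0.0165), but −2.20 and not called without normal skin replicate 5. Slc45a2, a melanosome transporter, was at −4.05 (SE 0.976, edgeR adjusted p = 0.0220), not called and at −2.49 without normal skin replicate 5, at −4.66 without healthy wound replicate 4 and at −4.77 without diabetic wound replicate 3. The number lower in that list was 0 without normal skin replicate 5 and 2 without healthy wound replicate 3. The follicle transcription factor Lhx2 was at −2.67 (SE 0.645, edgeR adjusted p = 0.0225), with no call without normal skin replicate 5 and −3.26 without healthy wound replicate 2. None of the 12 Schwann cell and myelin genes was called by edgeR (median −0.56); at an unadjusted p under 0.05, 3 passed. The myelin protein genes Pmp22 and Prx were at −0.69 (adjusted p = 0.0951) and −1.06 (adjusted p = 0.132) by edgeR. The hair list had 12 lower with DESeq2 and 1 lower with limma-voom. The melanocyte list had 1 lower with limma-voom. The Schwann cell list had 4 lower with limma-voom. Lhx2 (−2.66, 0.0553) and Krt71 (−7.08, 0.111) lost the call with no low-count filter, Slc45a2 (−2.14, 0.126) and Krt71 (−5.55, 0.557) with limma-voom, Dct (−2.64, 0.108), Slc45a2 (−2.08, 0.301), Lhx2 (−1.34, 0.459) and Krt71 (−0.58, 0.902) with all 10 wounds as 1 group, and Slc45a2 (−3.79, 0.0556) and Krt71 (−6.85, 0.113) with diabetic wound replicates 4 and 5 both left out. Pmp22 (−0.89, 0.0120) and Prx (−1.29, 0.0421) gained a call with limma-voom. Dct (−2.65, 0.0424) kept the call but moved with limma-voom.

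**Figure D3:**
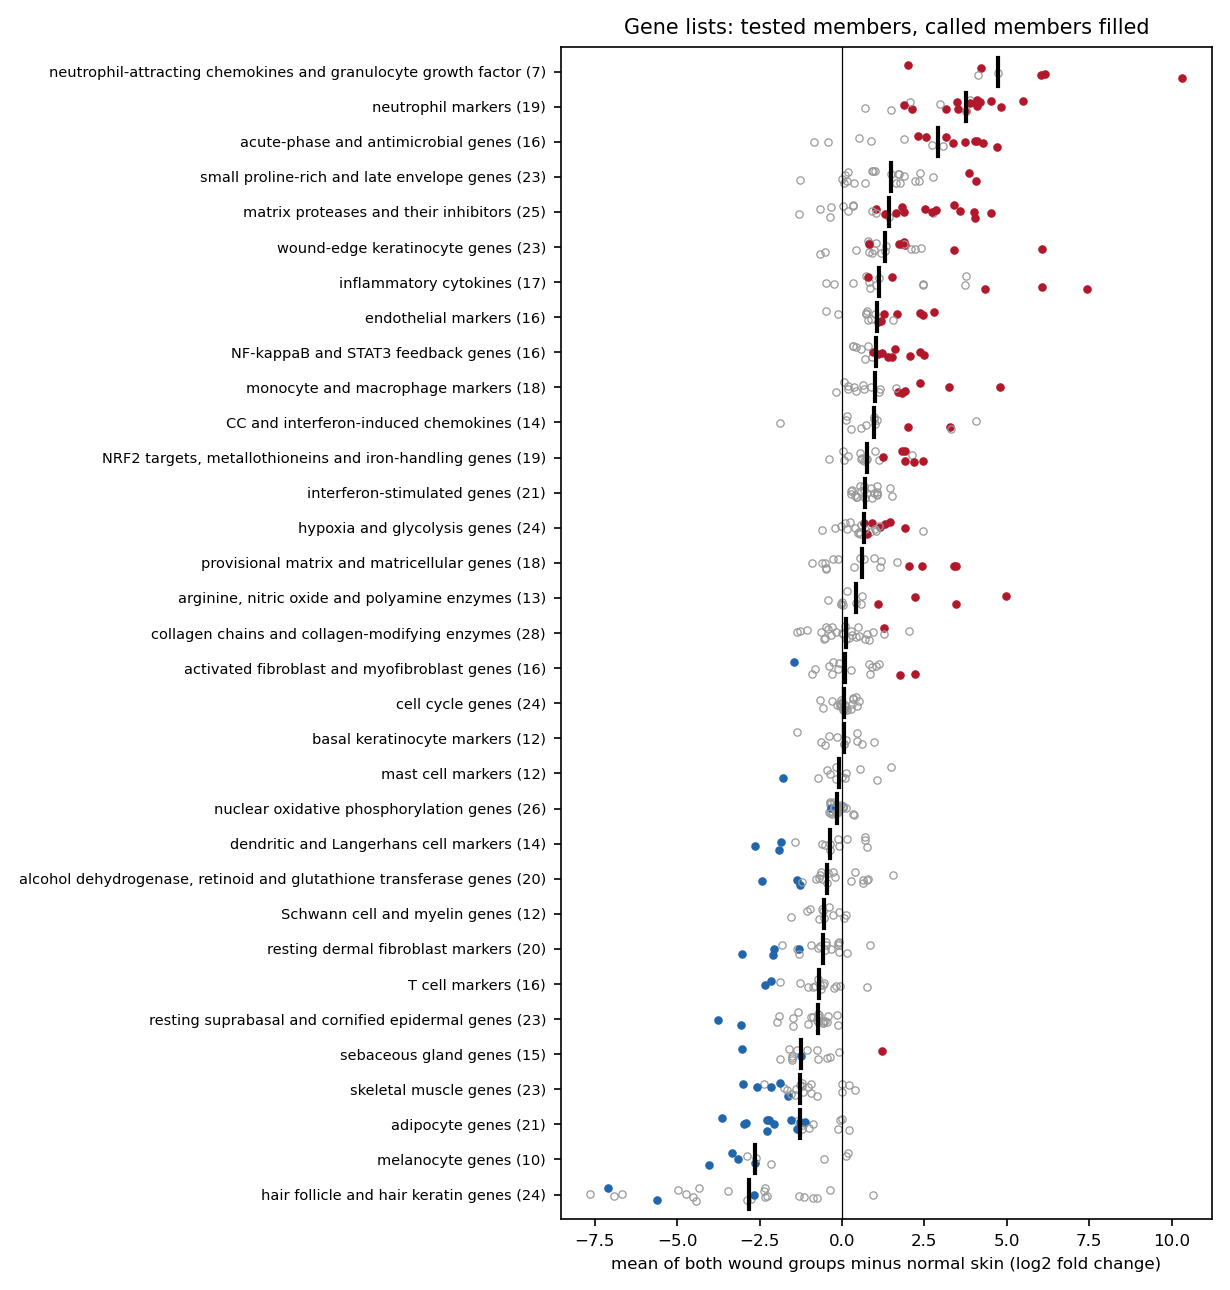
Log2 fold change of the wound mean for every tested member of the 33 gene lists, 1 point per gene, filled red where called higher and blue where called lower at an edgeR adjusted p under 0.05; the black bar is the list median and the number tested stands in brackets. Medians run from −2.82 for hair genes to 4.72 for neutrophil chemokines, against 0.01 over all genes tested.

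Some markers of leukocytes that live in resting skin were lower in the wound mean and others were not called. Of 19 tested neutrophil markers, 13 were higher. The median of T cell markers was 0.05 in healthy and −1.45 in diabetic wounds. For dendritic and Langerhans cell markers it was 0.03 in healthy and −0.77 in diabetic wounds. Summed T cell markers were at 143.5 to 249.3 CPM in normal skin, 216 to 265 CPM for healthy wounds and 50.7 to 171 CPM for diabetic wounds. Xcr1, the chemokine receptor of cross-presenting dendritic cells, was low in all libraries and lower in wounds. Xcr1 was at 2.75, 3.25, 2.83, 2.36 and 4.02 CPM in normal skin, 1.49, 1.09, 0.575, 0.566 and 0.459 CPM in healthy wounds and 0.495, 1.02, 1.17, 0.681 and 0.896 CPM in diabetic wounds. The groups did not overlap, and the fold change was −1.84 (SE 0.315, edgeR adjusted p = 0.00578). Mgl2, a lectin of dermal dendritic cells and macrophages, was at −2.65 (SE 0.488, edgeR adjusted p = 0.00703), and Cd207, the langerin of Langerhans cells, at −1.90 (SE 0.440, edgeR adjusted p = 0.0184), giving 3 of 14 lower and none higher (median −0.37). The class II genes H2-Aa, H2-Ab1 and H2-Eb1 had values of −0.37, −0.37 and −0.52 and were not called. Mrgprb2, a receptor of connective tissue mast cells, fell without overlap. Mrgprb2 was at 7.10, 6.37, 5.71, 5.85 and 6.21 CPM in normal skin, 1.49, 0.803, 1.78, 2.60 and 1.43 CPM in healthy wounds and 3.09, 2.10, 2.53, 0.991 and 1.02 CPM in diabetic wounds. Its fold change was −1.80 (SE 0.310, edgeR adjusted p = 0.00578), but it was the only 1 of 12 mast cell markers called by edgeR, and the mast cell protease genes Cma1 and Cpa3 were at 0.01 and 0.08 and the IgE receptor chain Fcer1a at 1.49 (adjusted p = 0.107). T cell markers had 2 of 16 lower (median −0.71), with Cd3e, a chain of the T cell receptor complex, at −2.33 (SE 0.464, edgeR adjusted p = 0.0101). Cd3e was lower in diabetic than in healthy wounds by a log2 difference of −2.16 (edgeR adjusted p = 0.0388). In all, 5 of the 16 T cell genes were lower in diabetic wounds, against 4.02% of all genes tested. Cd8b1 was at −2.15 (SE 0.571, edgeR adjusted p = 0.0312), all of it from diabetic wounds (−4.23) and none from healthy wounds (−0.07), and its call was lost without normal skin replicates 2, 3 and 5 and healthy wound replicates 3 and 4. The list count was 1 without normal skin replicates 2, 3 and 5 and healthy wound replicates 3 and 4. The T cell list had 4 lower with DESeq2. Cd8b1 (−2.16, 0.0900) lost the call with no low-count filter, Cd8b1 (−1.17, 0.118) with limma-voom, Cd3e (−1.95, 0.0730) and Cd8b1 (−0.98, 0.522) with all 10 wounds as 1 group, and Cd8b1 (−1.84, 0.0765) with diabetic wound replicates 4 and 5 both left out. Fcer1a (1.47, 0.0355) gained a call with DESeq2.

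Among metabolic genes, the hypoxia factor Hif1a and the glucose transporter Slc2a1 rose in both wound groups. Hif1a was at 91.3, 158, 121, 208 and 215 CPM in normal skin, 326, 231, 415, 294 and 336 CPM in healthy wounds and 237, 370.1, 453, 315 and 493 CPM in diabetic wounds. Slc2a1 was at 66.0, 76.3, 55.3, 131 and 108 CPM in normal skin, 168, 151, 200.4, 198 and 266 CPM in healthy wounds and 262, 226, 363, 137 and 187 CPM in diabetic wounds. For Hif1a and Slc2a1 all wounds were above all normal skin libraries, with fold changes of 1.14 (SE 0.233, edgeR adjusted p = 0.0111) and 1.32 (SE 0.261, edgeR adjusted p = 0.00965). Hypoxia and glycolysis genes had 7 of 24 higher and none lower (median 0.68). The number was 3 without normal skin replicates 1 and 3 and 4 without normal skin replicates 2 and 5 and healthy wound replicates 1 and 3. In the NRF2, metallothionein and iron list, 6 of 19 tested genes rose (median 0.76), with the haem-degrading Hmox1 at 1.90 (SE 0.355, edgeR adjusted p = 0.00741), the cystine transporter Slc7a11 at 2.45 (SE 0.516, edgeR adjusted p = 0.0130) and the ferritin light chain Ftl1 at 1.23 (SE 0.239, edgeR adjusted p = 0.00905). That list's median was 0.37 in healthy and 1.47 in diabetic wounds, and 7 of its genes were higher in diabetic than in healthy wounds. Nuclear oxidative phosphorylation genes had medians of −0.35 in healthy and −0.05 in diabetic wounds. Of 26, 6 were higher in diabetic than in healthy wounds and none lower, against 5.13% higher over all genes tested. They summed to 3980 to 5244 CPM in normal skin, 2913 to 3870 CPM for healthy wounds and 4176 to 5126 CPM for diabetic wounds. In the wound mean their values ran from −0.39 to 0.36, and the 1 called, Uqcrc2 at −0.34 (SE 0.103, edgeR adjusted p = 0.0497), was called in 1 of the 15 fits without a library. It was called without diabetic wound replicate 4, and lost without every other library. None of 24 cell cycle genes was called by edgeR (median 0.05, range −0.67 to 0.51); at an unadjusted p under 0.05, 0 passed. Of 20 alcohol dehydrogenase, retinoid and glutathione transferase genes, 3 were lower (list median −0.44), against 4.38% of all genes tested. Among the 3 were Adh7 at −1.37 (SE 0.356, edgeR adjusted p = 0.0284) and Adh6a at −2.42 (SE 0.600, edgeR adjusted p = 0.0245). Adh6a had no call without normal skin replicate 1, and Adh7 none without normal skin replicates 1, 2, 3 and 4 and healthy wound replicates 1 and 3. The list gave 0 without normal skin replicate 1, 1 without normal skin replicates 3 and 4 and 5 without diabetic wound replicate 4. The oxidative phosphorylation list had 5 lower with DESeq2 and 6 lower with limma-voom. The NRF2 and iron list had 11 higher with DESeq2. The alcohol dehydrogenase list had 2 higher with DESeq2 and 1 higher and 6 lower with limma-voom. Uqcrc2 (−0.35, 0.0556) lost the call with RLE scaling, Uqcrc2 (−0.35, 0.0562) with library size scaling, Uqcrc2 (−0.35, 0.139) with no low-count filter, and Adh6a (−1.76, 0.217) and Uqcrc2 (−0.34, 0.107) with all 10 wounds as 1 group.

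The rises and falls were larger in diabetic wounds for most called genes. Of the 775 higher genes, 774 were positive in each wound group and 627 (80.9%) had the larger rise in diabetic wounds, with medians of 1.02 in healthy and 1.48 in diabetic wounds. Of the 750 lower genes, 746 were negative in each and 573 (76.4%) had the larger fall in diabetic wounds, with medians of −1.05 and −1.64. A shared sign is not a shared size. At least 1 wound group's own log2 fold change was under 0.5 in size for 177 (22.8%) of the 775 and 130 (17.3%) of the 750. Healthy wounds were under 0.5 for 166 and 119 of these genes. Both wound groups were over 1 in size for 367 of the 775 and 363 of the 750. Taken alone, healthy wounds had 133 genes (0.777%) higher and 60 (0.35%) lower than normal skin, and diabetic wounds 1827 (10.7%) higher and 1445 (8.44%) lower. Both wound groups are set against the same normal skin libraries, so their values are not independent of each other. A difference between diabetic and healthy wounds, which does not use normal skin means, was called higher for 164 (21.2%) and lower for 5 of the 775, against 5.13% and 4.02% of all genes tested (9.15% in either direction). Among the 750, it was called lower for 110 (14.7%) and higher for 4. A call was absent for 606 of the higher and 636 of the lower genes, which does not show that the groups act alike. A value within 0.5 of 0 was found for 344 of the 775 and 349 of the 750. In all, 168 called genes were higher in diabetic wounds and 115 lower. Those 2 counts were 87 and 53 without normal skin replicate 1, 108 and 56 without replicate 3, 81 and 57 without replicate 4, 49 and 27, 77 and 55, 79 and 42, 50 and 26, and 31 and 18 without healthy wound replicates 1 to 5 in turn, and 42 and 18, 309 and 253, and 79 and 41 without diabetic wound replicates 2, 3 and 5.

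**Figure D4:**
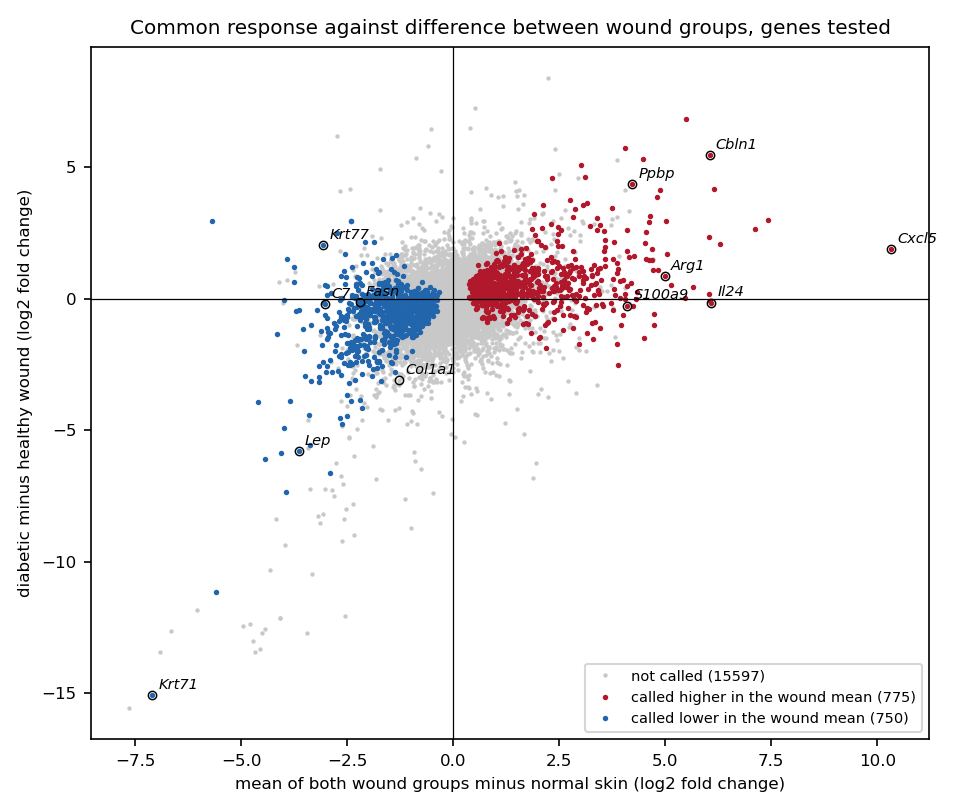
Each of the 17122 tested genes by its log2 fold change of the wound mean against normal skin (horizontal) and of diabetic against healthy wounds (vertical), with the 775 genes called higher in red, the 750 called lower in blue and 12 genes ringed. Fasn, C7 and S100a9 lie near 0 on the vertical axis, Ppbp and Cbln1 far above it, and Lep and Krt71 far below.

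Among called genes within 0.5 of 0 between the wound groups, those of smallest p include structural and signalling genes beyond those above. They were picked for this small difference and for no overlap with normal skin, so neither trait is a result. Tes, a focal adhesion protein, rose by 1.44 in healthy and 1.40 in diabetic wounds, with a mean of 1.42 (SE 0.216, edgeR adjusted p = 0.00385) and a difference of −0.04 (95% interval −0.54 to 0.45). The formin Fmnl3 had 1.35 and 1.38 (mean 1.36 (SE 0.206, edgeR adjusted p = 0.00385)), and the metalloreductase Steap1 2.49 and 2.90 (mean 2.70 (SE 0.366, edgeR adjusted p = 0.00188)). Rgmb, a co-receptor of bone morphogenetic proteins, was lower in every wound. Rgmb was at 78.9, 84.8, 81.8, 71.3 and 86.9 CPM in normal skin, 54.8, 52.1, 47.8, 45.3 and 42.1 CPM in healthy wounds and 57.0, 37.7, 39.8, 38.0 and 38.5 CPM in diabetic wounds. A fold change of −0.83 (SE 0.122, edgeR adjusted p = 0.00338) was called in all 15 fits that left out a library.

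The clearest departures from a common response were these. Ppbp rose far more in diabetic wounds. Ppbp was at 2.86, 2.61, 2.48, 0.675 and 0.609 CPM in normal skin, 8.57, 4.59, 14.0, 4.58 and 6.54 CPM in healthy wounds and 110.1, 237, 279, 93.5 and 53.8 CPM in diabetic wounds. All wounds were above normal skin, all diabetic wounds were above all healthy wounds, and the difference between them was 4.35 (adjusted p = 0.00461) around a mean of 4.21 (SE 0.555, edgeR adjusted p = 0.00151). Esd, an esterase of all tissues, rose by 0.51 in healthy and 2.0 in diabetic wounds (difference 1.49, adjusted p = 0.00461). Pnpla3, a lipase of the lipid droplet, had the smallest p of the wound mean. Pnpla3 was at 18.7, 21.4, 22.1, 15.9 and 22.4 CPM in normal skin, 7.20, 10.9, 8.11, 8.77 and 4.36 CPM in healthy wounds and 3.28, 1.84, 2.47, 1.55 and 0.956 CPM in diabetic wounds. Its levels fell in 3 steps without overlap, at −2.32 (SE 0.248, edgeR adjusted p = 0.00105) for the mean and −1.92 (adjusted p = 0.0106) between the wound groups. Maf1, a repressor of RNA polymerase III, was called at 0.58 (SE 0.165, edgeR adjusted p = 0.0405) although healthy wounds were at −0.06, and Mkrn1, a ubiquitin ligase, at 0.78 (SE 0.180, edgeR adjusted p = 0.0186) with 0.12. On the falling side, Clec11a, a bone growth factor, was at −1.12 (SE 0.297, edgeR adjusted p = 0.0306) with −0.02 in healthy wounds, and Rgma at −0.79 (SE 0.178, edgeR adjusted p = 0.0165) with −0.17. For these 4, the wound mean described the diabetic wounds. The Maf1 call was kept without diabetic wound replicates 3, 4 and 5 and healthy wound replicate 2, and lost without each other library, that of Clec11a was lost without normal skin replicates 1, 2 and 3 and healthy wound replicates 1 and 3, and that of Mkrn1 without normal skin replicate 1. Cbln1, a secreted synaptic organiser, was at 6.04 (SE 1.45, edgeR adjusted p = 0.0220), its highest library being diabetic wound replicate 5 at 276 CPM, against at most 25.5 CPM elsewhere; it was 4.74 without that library, 6.91 without normal skin replicate 4, and its call ended without normal skin replicates 1 and 2. Prg4, lubricin, was among the largest gains of reads (2.86 (SE 0.849, edgeR adjusted p = 0.0484)), and the highest level was 6080 CPM, in diabetic wound replicate 5; it was 3.61 without normal skin replicate 3 and called in 3 of the 15 fits, those without normal skin replicate 3 and diabetic wound replicates 1 and 3. Maf1 (0.53, 0.0532) and Prg4 (2.80, 0.0508) lost the call with upper-quartile scaling, Cbln1 (6.03, 0.0720), Maf1 (0.56, 0.0874) and Prg4 (2.82, 0.123) with no low-count filter, Prg4 (2.84, 0.0527) with a stricter filter, Cbln1 (4.36, 0.114) with limma-voom, Rgma (−0.66, 0.232), Mkrn1 (0.92, 0.124), Clec11a (−0.74, 0.442), Maf1 (0.72, 0.210) and Prg4 (3.70, 0.0818) with all 10 wounds as 1 group, and Prg4 (1.69, 0.0868) with diabetic wound replicates 4 and 5 both left out. Prg4 (2.2, 0.0202) kept the call but moved with limma-voom, Cbln1 (7.80, 0.0487) with all 10 wounds as 1 group, and Cbln1 (4.29, 0.0163) with diabetic wound replicates 4 and 5 both left out.

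**Figure D5:**
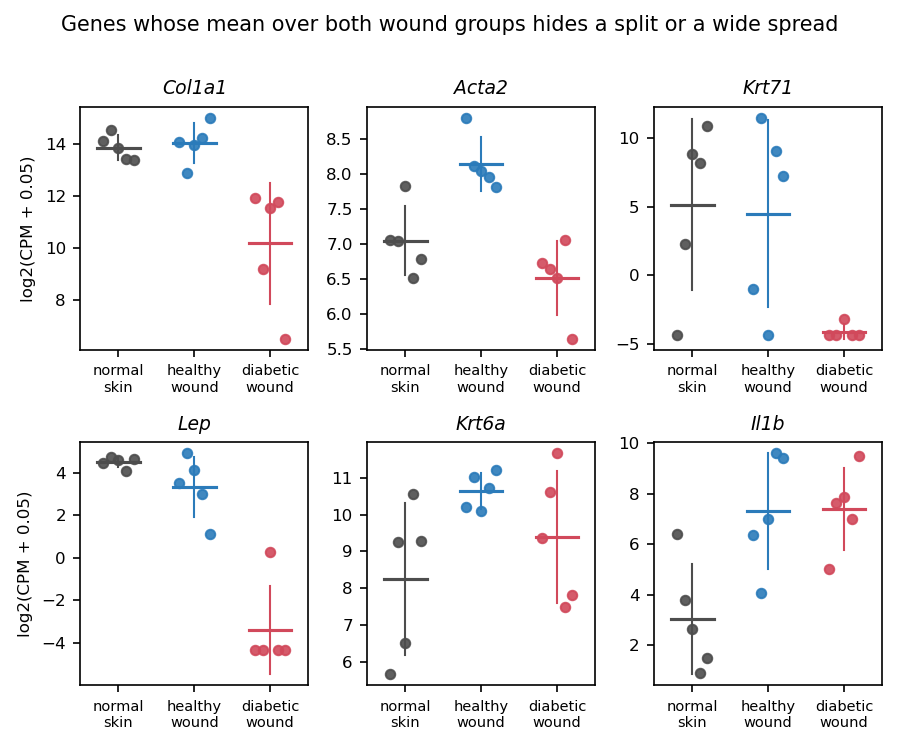
Levels of 6 genes in each library, as log2(CPM + 0.05), with a point per library, a horizontal bar for the mean of these log values and a vertical bar for 1 SD (n = 5 per group). For Col1a1 and Lep all diabetic wounds lie below all healthy wounds and all normal skin, with some healthy wounds also below normal skin, the Acta2 means of the wound groups lie on opposite sides of normal skin, and Krt71, Krt6a and Il1b vary widely within groups.

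Car3 and Ahnak, with Myh1, Krt77 and Gsn above, were the 5 genes with the largest losses in mean CPM among those called. Car3, a carbonic anhydrase of fat and muscle, was at −2.06 (SE 0.379, edgeR adjusted p = 0.00702), with 1053 to 2758 CPM in uninjured skin, 209 to 939 CPM in healthy and 179 to 763 CPM in diabetic wounds. Wounds and normal skin did not overlap. Ahnak, a large scaffold protein, was at −0.91 (SE 0.243, edgeR adjusted p = 0.0325), a call lost without normal skin replicates 1 and 2 and healthy wound replicates 1, 3, 4 and 5. The gluconeogenic enzyme Pck1, also used by fat, was at −2.91 (SE 0.728, edgeR adjusted p = 0.0248) and lost without normal skin replicates 1 and 2. Ldhb, a lactate dehydrogenase subunit, was at −1.23 (SE 0.218, edgeR adjusted p = 0.00619). Pck1 (−2.95, 0.0782) lost the call with no low-count filter, Pck1 (−2.49, 0.0970) with all 10 wounds as 1 group, and Ahnak (−0.80, 0.0625) with diabetic wound replicates 4 and 5 both left out. Pck1 (−4.72, 0.00478) kept the call but moved with limma-voom.

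Of 6 basement membrane collagen IV chains, 2 fell and none rose. Col4a3 (ENSMUSG00000079465, chromosome 1, 82586921 to 82722059, plus strand) and Col4a4 (ENSMUSG00000067158, chromosome 1, 82448423 to 82586849, minus strand) lie head to head in the authors' table with 71 bases between their gene models. No label names the genome build of these coordinates. Col4a4 was at 16.6, 26.2, 26.8, 31.7 and 22.0 CPM in normal skin, 13.9, 10.5, 3.91, 8.77 and 6.66 CPM in healthy wounds and 3.40, 1.15, 5.24, 2.54 and 0.777 CPM in diabetic wounds. All wounds of Col4a4 were below normal skin, with diabetic wounds below most healthy wounds, and the fold changes were −2.36 (SE 0.359, edgeR adjusted p = 0.00385) for Col4a4 and −2.53 (SE 0.436, edgeR adjusted p = 0.00578) for Col4a3. The ubiquitous chains Col4a1, at 0.83 (adjusted p = 0.0668), and Col4a2, at 0.71 (adjusted p = 0.108), had positive values and were not called, and nor were Col4a5, at −1.01 (adjusted p = 0.162), and Col4a6, at −1.49 (adjusted p = 0.117). These chains were singled out after their values were seen.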

How the data were processed

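Poly-A selected RNA was sequenced from frozen mouse skin after TRIzol extraction and a NEBNext Ultra library preparation, per the labels' protocols, a kit that does not mark strand, so overlapping genes on opposite strands cannot be told apart. The authors deposited 1 table of raw counts per gene for the 15 libraries, used as deposited; for the aligner, the counter and the genome build, each is not given in the sources used here. Counts were read in R 4.3.3 and tested with edgeR 4.0.16 (filterByExpr by group, TMM scaling, robust glmQLFit and glmQLFTest, Benjamini-Hochberg adjustment over all 17122 genes tested). The model had 3 group coefficients, and the contrast was the mean of the healthy and diabetic wound coefficients minus normal skin. CPM values are counts divided by the library total. Depth was 15693964 to 17777165 counts per library, and intervals over counts cover counting error only.

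Genes named by rule were the 10 largest rises and falls without overlap and with at least 10 CPM, and the 2 members of each list with the smallest p. They also held the 5 rises and 5 falls with the smallest p among genes within 0.5 of 0 between the wound groups. The rest by rule were the 5 largest gains and losses of mean CPM, the 4 most different between wound groups in each direction, and 14 set genes. Other list members were named after their values were seen. The gene lists and the members were chosen with earlier results of these data known. Of 611 distinct list genes, 592 were tested. Some genes that met the rule are not reported here.

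Other settings tried were scaling by RLE, by the upper quartile or by library size, no filter and a stricter one, DESeq2 1.42.0, limma 3.58.1 voom with sample quality weights, the replicate number as a block, all wounds as 1 group, glmTreat with a minimum fold of 1 on the log2 scale, each library left out, and diabetic wound replicates 4 and 5 left out together. In data simulated from these libraries for the wound mean, 25 of 99 genes changed by a log2 size of 1 and 74 of 95 changed by 2 were called, as were 5 of 16488 unchanged genes. The simulation drew each gene separately from 1 profile shared by all libraries. It held no shifts in tissue content between libraries of a group, so these shares need not hold for the real libraries.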

Additional observations from a re-analysis of the deposited data

Results flagged for a closer look

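Among the genes named, 11 of 309 groups of 5 libraries held a library that stood apart from the other 4 by Dixon's test, where chance gives about 1 in 20, or 15. The library was the highest of its group in 5 cases. Rgmb was at 57.0 CPM in diabetic wound replicate 1, with the nearest library of its group at 39.8 CPM. Mb was at 124 CPM in healthy wound replicate 3, with the nearest library of its group at 34.2 CPM. Lep was at 1.17 CPM in diabetic wound replicate 3, with the nearest library of its group at 0 CPM. Slc45a2 was at 0.0617 CPM in diabetic wound replicate 3, with the nearest library of its group at 0 CPM. Krt71 was at 0.0617 CPM in diabetic wound replicate 3, with the nearest library of its group at 0 CPM. For Lep, Slc45a2 and Krt71 the other 4 diabetic wounds had no read, so a single library with reads is enough to stand apart. The library was the lowest in the other 6 cases. Abca8a was at 38.0 CPM in normal skin replicate 5, with the nearest library of its group at 71.7 CPM. Abca8a was at 2.45 CPM in diabetic wound replicate 5, with the nearest library of its group at 13.2 CPM. Cd300lf was at 10.6 CPM in healthy wound replicate 2, with the nearest library of its group at 41.4 CPM. Angpt2 was at 1.40 CPM in normal skin replicate 5, with the nearest library of its group at 6.08 CPM. Tpm2 was at 262 CPM in diabetic wound replicate 3, with the nearest library of its group at 495 CPM. Adh6a was at 0.186 CPM in diabetic wound replicate 4, with the nearest library of its group at 4.78 CPM.

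The difference between diabetic and healthy wounds was called by edgeR for 27 of the genes named. The diabetic minus healthy log2 fold change was positive for Mmp8 (2.14), Esd (1.49), Ppbp (4.35), Itgam (1.5), Nfkbia (1.60), Cxcl1 (4.17), Mkrn1 (1.31), Cbln1 (5.45), Adh6a (2.97), Maf1 (1.29) and Prg4 (3.40). It was negative for Pnpla3 (−1.92), Acvr1c (−1.54), Lgals12 (−2.22), Col4a4 (−1.71), Lep (−5.78), Cd3e (−2.16), Rgma (−1.25), Slc45a2 (−5.88), Lhx2 (−4.52), Clec11a (−2.21), Cd8b1 (−4.16), Krt71 (−15.07), Col18a1 (−1.11), Col1a1 (−3.08), Acta2 (−1.58) and Col3a1 (−2.48). The value of Krt71 is no bound, since 4 of the 5 diabetic wounds had no read of it. Col18a1, Col1a1, Acta2 and Col3a1 are in this list without being called in the wound mean.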

How the results depend on the processing

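The counts of genes called, 775 higher and 750 lower, stayed within 1.5 times under RLE, upper-quartile and library size scaling and a stricter filter. They were 444 and 474 with no filter, where 35249 genes were tested, 1423 and 1368 with DESeq2, 1356 and 1509 with limma-voom, 459 and 339 with all wounds as 1 group, and 21 and 10 with a minimum log2 fold change of 1. DESeq2 called 772 of the 775 and 746 of the 750. Leaving out each library in turn gave 417 to 857 higher and 354 to 875 lower. Differences between diabetic and healthy wounds among called genes, 168 higher and 115 lower, were 55 and 40 with no filter, 427 and 379 with DESeq2, 522 and 450 with limma-voom, 1 and 0 with the minimum fold change, 31 to 309 and 18 to 253 leaving out each library, and 60 lower without diabetic wound replicates 4 and 5 together. The causes were not tested. Of 2667 values of named genes under other settings, 2396 stayed on their side of the threshold, 243 lost a call, 28 gained 1 and 0 changed sign.

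With the replicate number as a block, 511 genes were higher and 412 lower in the wound mean, and 20 and 11 of the called genes differed between wound groups. Same-numbered libraries deviated from their group means with correlations of −0.21 to 0.24, 3 of 15 over 0.1. Those 3 were all between normal skin and healthy wounds. Pairs of unlike number were not set beside these values, so they do not settle whether the numbers pair the libraries. Of the 80 named genes called, 64 kept the call under the block. By edgeR adjusted p, the losses were Sprr2i (0.0685), Sprr2k (0.132), Lhx2 (0.0503), Dct (0.087), Ccl7 (0.0686), Inhba (0.0737), Adh6a (0.06) and Pck1 (0.0519). Skint5 (0.0682), Adh7 (0.06), Cd8b1 (0.0789), Krt2 (0.105), Maf1 (0.0828), Krt71 (0.111), Prg4 (0.136) and Uqcrc2 (0.103) lost it too.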

Other observations

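Lists put together after the values were seen describe further groups of genes, and their counts support nothing further. Of 17 fatty acid synthesis genes, 8 were lower and none higher, with a median of −1.27 against 0.01 over all genes tested; they include the citrate-cleaving Acly, at −0.61 (adjusted p = 0.0113), the malic enzyme Me1, at −0.75 (adjusted p = 0.00738), and Acss2, which activates acetate, at −1.45 (adjusted p = 0.00783), by edgeR. Of 17 CD300, TREM and lectin receptors of myeloid cells, 8 were higher and none lower, with a median of 1.78. Of 14 tested leukocyte adhesion genes, 6 were higher, among them P-selectin (Selp) at 2.47 (adjusted p = 0.0404) and Icam1 at 1.04 (adjusted p = 0.0128). The Selp call was lost without normal skin replicates 1, 2, 4 and 5, healthy wound replicates 1 and 3 and diabetic wound replicates 2 and 5. Of 13 necroptosis and gasdermin genes, 3 were higher.

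Of 13 tested prostaglandin genes, the inducible cyclooxygenase Ptgs2 was higher at 3.06 (adjusted p = 0.0374), and the constitutive Ptgs1, at −1.35 (adjusted p = 0.0277), and the receptor Ptger3, at −2.28 (adjusted p = 0.00210), were lower. Ptgs2 was called in 7 of the 15 fits that left out 1 library, Ptgs1 in 12 and Ptger3 in 15. Ptgs2 lost its call without normal skin replicates 2, 3, 4 and 5, healthy wound replicates 4 and 5 and diabetic wound replicates 2 and 5, and reached 3.73 without normal skin replicate 1. Ptgs1 lost its call without normal skin replicates 4 and 5 and healthy wound replicate 1. Of 16 clock genes, Bhlhe40 was higher at 1.40 (adjusted p = 0.00578) and Dbp lower at −0.97 (adjusted p = 0.0179); Dbp lost its call without normal skin replicate 1. Between diabetic and healthy wounds, edgeR called Cry2 (3.00), Per1 (2.16), Cry1 (1.53), Nr1d1 (1.51) and Arntl (0.92) higher and Per3 (−0.71) lower. Over all genes tested, 5.13% were called higher and 4.02% lower between these groups. Against normal skin, Cry2 was at −1.08 in healthy and 1.92 in diabetic wounds. The time of day of sampling is not given in the sources used here. Its part in these differences was not tested.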
